A study of Mus musculus with 19 samples.

Results

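Liver of mice given 12.5 mg/kg of dibenz[a,h]anthracene (DB[a,h]A) was compared with liver of control mice across all genes on the array. The arrays were chosen by their labelled dose, which gave 4 arrays at 12.5 mg/kg and 5 control arrays, 9 of the 19 in the series. All animals of both groups were male mice of the transgenic strain 40.6, aged 10 weeks, and part of the liver was taken 3 days after exposure. The labels give the same exposure period for all animals and name neither the transgene, the route, the vehicle nor the hour of tissue collection. The other arrays, 5 at 6.25 mg/kg and 5 at 25 mg/kg, came from the same strain, sex and age. Each array compared the liver RNA of 1 animal, labelled with Cy5 (red), with a purchased reference RNA pooled from 11 mouse cell lines, labelled with Cy3 (green). The dyes were not swapped, so dye and sample type cannot be told apart within an array, while both groups carry the same orientation.

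Dibenz[a,h]anthracene is a polycyclic aromatic hydrocarbon. Compounds of this class bind the aryl hydrocarbon receptor (AhR), which switches on Cyp1 genes, and the Cyp1 enzymes turn them into reactive metabolites that bind DNA. DNA damage stabilises p53, a transcription factor that drives genes of cell cycle arrest, repair and cell death. Much of the liver transcriptome also follows a daily rhythm. The activators CLOCK and BMAL1 (gene Arntl) drive the Per and Cry repressors, the Nr1d1 and Nr1d2 receptors, and Dbp and Tef, factors that bind D-box sites; Nfil3 represses through the same sites.

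Values are log2 ratios of liver over reference. A log2 change is 12.5 mg/kg minus control, fitted with the slide as a block, and is given with its standard error (SE). Adjusted p-values come from limma with Benjamini-Hochberg adjustment over all 29415 probes tested, with 0.05 as the threshold for calling a probe changed. The arrays lay on 3 slides, of which slide 1 was scanned 7 days after the others. Slide 1 held 1 array at 12.5 mg/kg and 2 controls, slide 2 held 2 and 2, and slide 3 held 1 and 1. Array values are listed in that slide order, so a difference within slide 1 or slide 3 has only 1 treated liver behind it. Animals are the replicates, and p-values measure the spread between these livers.

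The tissue carried the markers of liver. All 19 measured hepatocyte markers, among them Alb and Apoa1, were well above background on each of the 9 arrays, and their changes lay between -0.17 and 0.12. Markers of 9 other cell types (120 genes) had changes between -0.40 and 0.52, and 0 passed, with 11 at an unadjusted p under 0.05. Of all genes 4.97% were higher and 5.74% lower at that unadjusted p. In bulk tissue fewer cells of a type and less RNA per cell cannot be told apart.

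The liver channel was on average dimmer at 12.5 mg/kg. At 12.5 mg/kg 38.3, 38.4, 35.5 and 47.1% of spots were well above background in the liver channel, against 52.4, 56.7, 43.0, 36.5 and 46.5% on control arrays. The means were 39.8% ± 5.01 at 12.5 mg/kg (SD, n = 4) and 47.0% ± 7.90 in controls (n = 5), a difference of -7.21 percentage points (exact two-sided permutation test, p = 0.175; the smallest p it allows is 0.00794). Within slides 1, 2 and 3 the difference was -16.3, -2.79 and 0.545 percentage points, largest on slide 1. With labels exchanged within slides the exact permutation p was 0.111. Median liver signal over local background was 1.36 ± 0.193 at 12.5 mg/kg (SD, n = 4) and 1.42 ± 0.157 in controls (SD, n = 5). The exact permutation p of this ratio was 0.651, and 0.361 within slides. Its differences on slides 1, 2 and 3 were 0.0724, -0.0224 and -0.099. The upper quartile of net liver signal, a measure added after the data were seen, was 175 ± 90 at 12.5 mg/kg (SD, n = 4) and 224 ± 109 in controls (SD, n = 5). For the quartile the exact permutation p was 0.46, and 0.0278 within slides, the smallest that test can give. The reference channel had 64.8% ± 3.26 of spots above background at 12.5 mg/kg (SD, n = 4) and 65.9% ± 7.35 in controls (SD, n = 5), with an exact permutation p of 0.794.

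Outside the dimmest bin of genes, the share that was higher was smaller in brighter bins. Of all 13812 genes 48.4% were higher at 12.5 mg/kg, with a median log2 change of -0.01. With genes ranked by liver signal into 10 bins of equal size, 49.9% of genes in the dimmest bin were higher (median 0), 61.3% in the second dimmest (median 0.04) and 37.8% in the brightest (median -0.04). Among the 6906 dimmer genes 54.6% were higher, and among the 6906 brighter genes 42.2%. The part of liver brightness in the list results below was not tested.

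**Figure D1:**
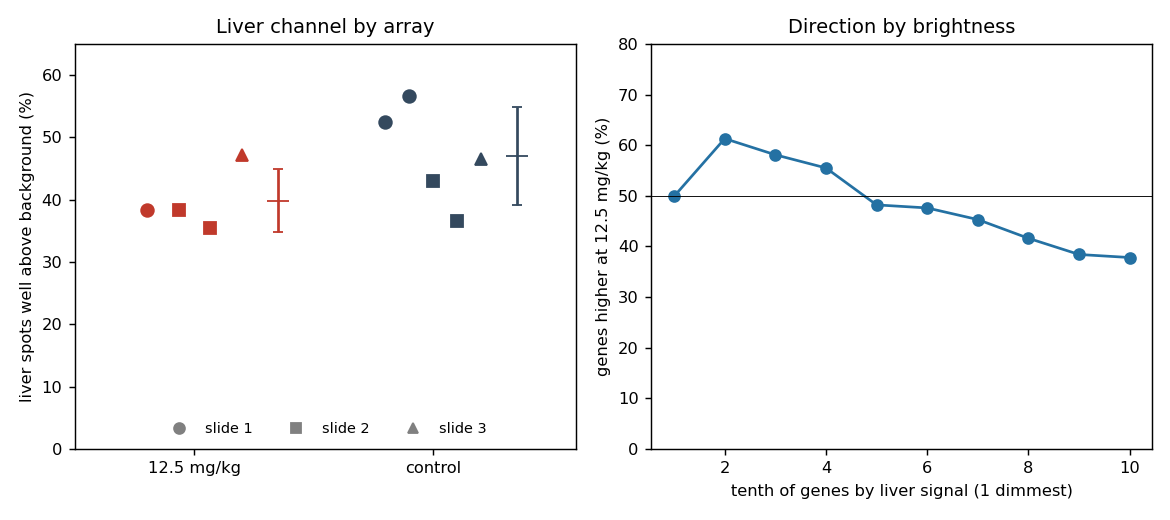
Left, percent of liver spots well above background for each array at 12.5 mg/kg and in control, with markers for the slide and bars for mean and SD. Right, percent of genes higher at 12.5 mg/kg than in control in each of 10 bins of genes by liver signal, with a line at equal shares. The slide 1 array at 12.5 mg/kg stood at 38.3%, against 52.4 and 56.7% for the slide 1 controls, and the share of genes higher was 49.9% in the dimmest bin, 61.3% in the second dimmest and 37.8% in the brightest.

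Dbp alone passed the test at 12.5 mg/kg, and Tef and Nr1d2, other genes of the circadian clock, were among those next in rank. Of 29415 probes 2 passed (0.0068%), both of Dbp and both higher, which is 1 of 13812 genes (0.00724%). An unadjusted p under 0.05 was reached by 2798 probes (9.51%), 1250 higher (4.25%) and 1548 lower (5.26%), where 1471 are expected by chance. With no slide block 0 probes passed in limma and 1239 reached an unadjusted p under 0.05. By sign alone 48.4% of genes were higher and 51.6% lower. The 2 groups did not overlap for 239 of 13812 genes (1.73%). Within each slide every treated array lay above every control for 604 genes (4.37%) and below for 704 (5.1%).

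**Figure D2:**
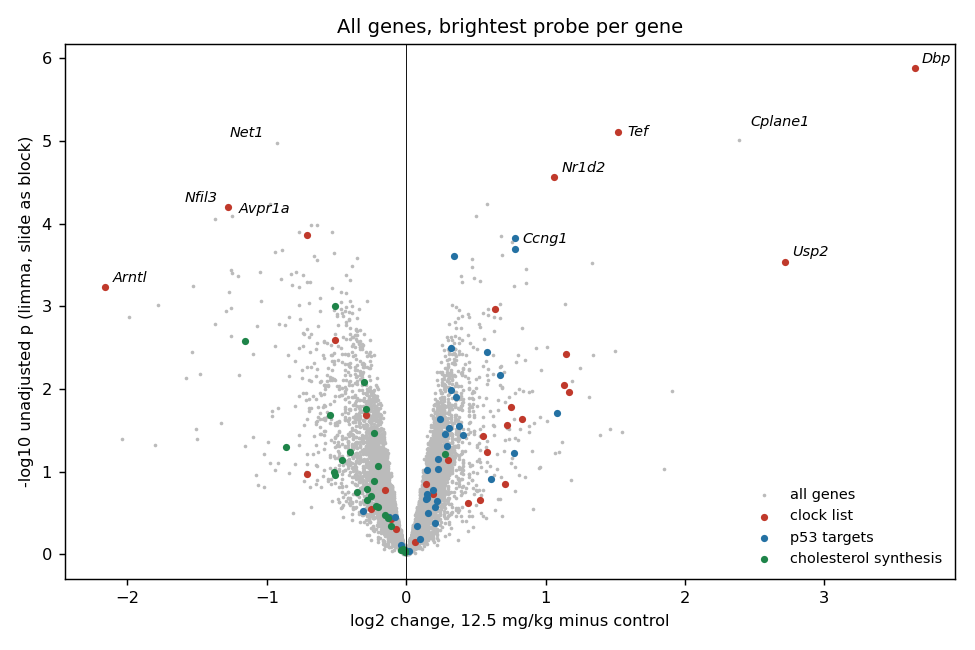
Each point is a gene, by its brightest probe, with the log2 change at 12.5 mg/kg minus control on the x axis and -log10 of the unadjusted p from limma, with the slide as a block, on the y axis. Members of the clock list (red), p53 targets (blue) and cholesterol synthesis genes (green) are coloured, and Dbp, at 3.65, stands farthest to the right and highest.

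Dbp, on chromosome 7, encodes a transcription factor that the clock drives directly and that activates genes through D-box sites. Dbp had log2 ratios of 2.42, 1.28, 0.93 and 2.24 at 12.5 mg/kg, against -2.51, -1.08, -1.35, -1.84 and -2.21 in controls. All 4 treated livers had positive log2 ratios and all 5 controls negative ones, with no overlap. Dbp rose 12.5-fold, a log2 change of 3.65 ± 0.51 (SE, adjusted p = 0.0257 in limma), and by 4.21, 2.70 and 4.45 on slides 1, 2 and 3. Its second probe rose by 3.55 ± 0.51 (adjusted p = 0.0257). The adjusted p of Dbp was 0.0661 with no slide block, 0.15 with liver brightness as a covariate, and 0.0269 to 0.171 with 1 array left out; it missed 0.05 without 12.5 mg/kg replicate 1, 2 or 4 and without control replicate 1, 4 or 5.

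Tef, Nr1d2, Nfil3 and Usp2 did not pass, and none of the 4 had an array of one group within the range of the other. Tef, a relative of Dbp on chromosome 15 that binds the same sites, had 2.10, 1.26, 0.92 and 1.57 at 12.5 mg/kg, against 0.34, 0.68, -0.13, 0.09 and -0.48 in controls. Its change was 1.52 ± 0.25 (SE, adjusted p = 0.0515). Nr1d2, a nuclear receptor that represses Arntl, had 1.08, 1.25, 0.75 and 1.96 at 12.5 mg/kg, against -0.22, 0.34, -0.04, 0.64 and 0.20 in controls, a change of 1.06 ± 0.19 (adjusted p = 0.0897). The lowest treated liver of Nr1d2 stood close to the highest control. Nfil3, the repressor at D-box sites, had 0.08, 0.50, 0.33 and -0.05 at 12.5 mg/kg, against 2.05, 1.54, 1.46, 0.98 and 1.68 in controls, a change of -1.28 ± 0.25 (adjusted p = 0.127). Usp2, which removes ubiquitin from proteins and cycles daily in liver, had 1.20, 0.21, 0.16 and 2.61 at 12.5 mg/kg, against -2.12, -2.02, -1.13, -1.36 and -1.46 in controls, a change of 2.72 ± 0.61 (adjusted p = 0.158). In Dbp, Tef, Nfil3 and Usp2 the slide 2 arrays gave the smallest differences, 2.70, 1.11, -0.81 and 1.43, and in Nr1d2 too, 0.70.

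**Figure D3:**
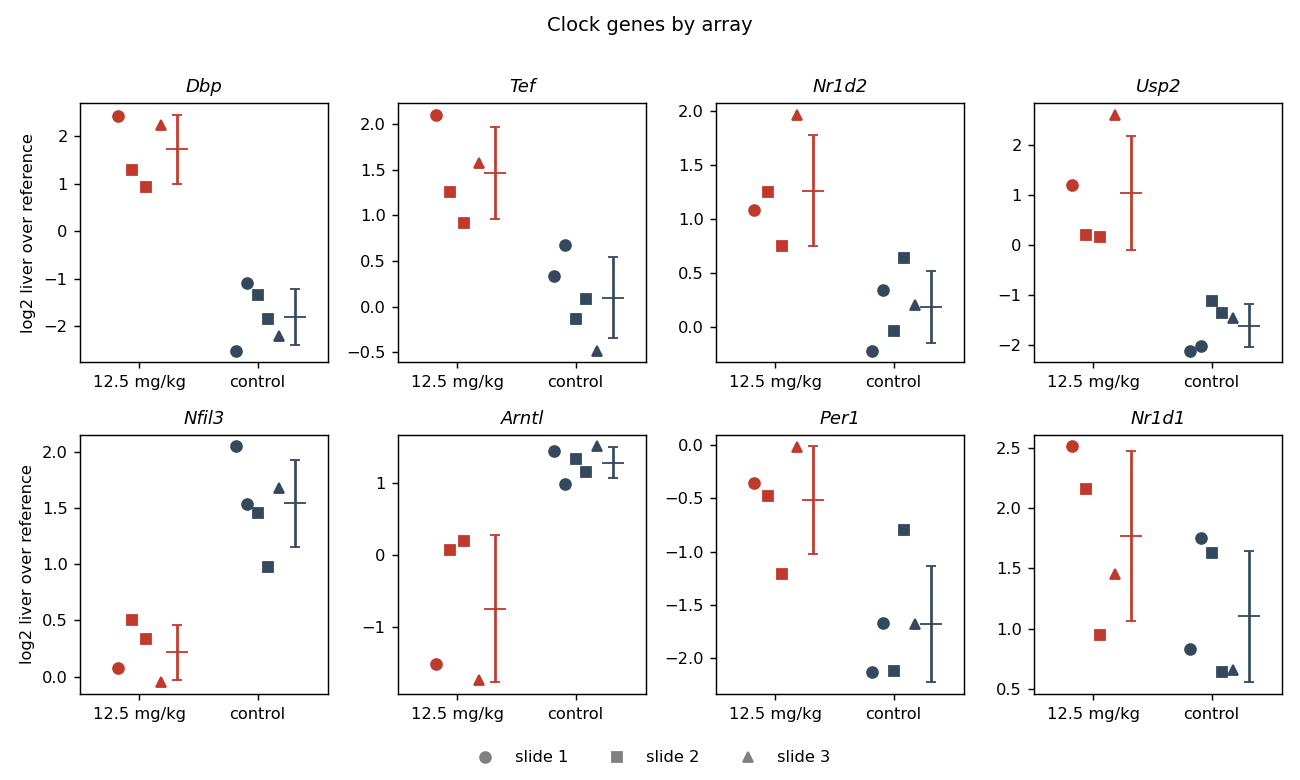
Log2 ratio of liver over reference for 8 clock genes on each array at 12.5 mg/kg (left in each panel) and in control (right), with markers for the slide and bars for mean and SD. Dbp, Tef, Nr1d2 and Usp2 lie higher and Nfil3 and Arntl lower at 12.5 mg/kg with no overlap, while Per1 and Nr1d1 overlap.

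The promoters of these 5 genes are shown because the clock acts on such genes through short DNA sites; that of Tef was added after its values were seen. Each sequence is 250 bases before to 50 bases after a RefSeq transcription start in assembly GRCm38.p6, read 5′ to 3′ on the gene's strand. The E-box CACGTG, bound by CLOCK and BMAL1 and the same on both strands, and the D-box TTATGTAA, searched on both strands, are in capitals where present. Dbp lies at chr7:45704997-45705296 on the plus strand, Nr1d2 at chr14:18239057-18239356 on the minus strand, Nfil3 at chr13:52980990-52981289 on the minus strand and Usp2 at chr9:44084670-44084969 on the plus strand. Tef has 2 starts, at chr15:81802423-81802722 and chr15:81811164-81811463, both on the plus strand.
Dbp: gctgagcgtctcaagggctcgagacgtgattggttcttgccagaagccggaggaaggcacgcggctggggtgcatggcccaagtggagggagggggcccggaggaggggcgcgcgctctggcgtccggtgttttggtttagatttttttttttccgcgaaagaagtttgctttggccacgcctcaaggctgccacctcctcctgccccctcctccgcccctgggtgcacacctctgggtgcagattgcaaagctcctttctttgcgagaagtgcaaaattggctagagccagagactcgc
Tef, first start: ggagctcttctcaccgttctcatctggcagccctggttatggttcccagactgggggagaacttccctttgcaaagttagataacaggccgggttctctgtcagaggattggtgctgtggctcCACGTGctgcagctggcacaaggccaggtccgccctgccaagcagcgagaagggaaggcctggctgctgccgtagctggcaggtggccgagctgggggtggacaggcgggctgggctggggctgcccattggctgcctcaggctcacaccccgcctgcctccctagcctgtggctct
Tef, second start: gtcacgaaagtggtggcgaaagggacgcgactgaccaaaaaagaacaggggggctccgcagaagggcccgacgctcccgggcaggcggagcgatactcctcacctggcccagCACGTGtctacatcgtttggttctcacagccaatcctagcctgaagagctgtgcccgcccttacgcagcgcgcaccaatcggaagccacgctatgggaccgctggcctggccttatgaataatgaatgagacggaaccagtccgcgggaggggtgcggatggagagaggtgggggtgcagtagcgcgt
Nr1d2: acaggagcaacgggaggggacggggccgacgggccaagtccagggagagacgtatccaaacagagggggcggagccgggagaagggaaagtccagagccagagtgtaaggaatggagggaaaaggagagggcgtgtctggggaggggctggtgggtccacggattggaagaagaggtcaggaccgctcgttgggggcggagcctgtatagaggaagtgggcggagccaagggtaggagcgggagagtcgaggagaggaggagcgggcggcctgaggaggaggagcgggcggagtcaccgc
Nfil3: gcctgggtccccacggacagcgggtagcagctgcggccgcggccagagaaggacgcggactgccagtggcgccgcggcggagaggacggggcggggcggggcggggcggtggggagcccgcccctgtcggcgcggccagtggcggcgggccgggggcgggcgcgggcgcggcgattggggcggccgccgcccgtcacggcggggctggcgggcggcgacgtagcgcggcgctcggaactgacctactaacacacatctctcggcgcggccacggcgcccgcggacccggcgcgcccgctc
Usp2: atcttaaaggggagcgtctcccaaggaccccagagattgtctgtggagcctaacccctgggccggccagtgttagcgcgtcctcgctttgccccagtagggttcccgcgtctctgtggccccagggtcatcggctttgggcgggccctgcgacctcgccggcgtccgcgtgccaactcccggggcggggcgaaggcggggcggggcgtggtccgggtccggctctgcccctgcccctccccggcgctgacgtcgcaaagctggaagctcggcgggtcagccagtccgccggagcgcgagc
Each Tef window held 1 E-box, starting 127 and 138 bases before the start site, and the windows of the other genes held neither motif. An E-box was found in 7 of 25 clock list genes with a promoter in the table (28%) and in 2187 of all 27025 genes (8.09%). The 7 were Bhlhe41, Ciart, Cipc, Cry1, Per1, Tef and Tspan4. A D-box was found in 1 clock gene (Per3) and in 299 of all genes (1.11%). A match describes letters in this window alone.

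Beyond Dbp, the clock list held higher and lower genes side by side. Of its 32 genes 30 were kept. The median log2 change was 0.48, against -0.01 over all genes, with 20 members higher and 10 lower; without 12.5 mg/kg replicate 1, on slide 3, it was 0.26. Dbp passed, and 12 members were higher and 5 lower at an unadjusted p under 0.05, against 4.97% and 5.74% of all genes. Treated and control arrays did not overlap for 12 of the 30 (40%), against 1.73% of all genes. Within each slide 9 members lay above and 4 below every control, against 4.37% and 5.1% of all genes. The list median was 0.47, 0.10 and 0.66 on slides 1, 2 and 3. The list was chosen with earlier results of these livers known, so its median is no independent evidence.

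Activators of the clock loop were lower. Arntl, which encodes BMAL1, had -1.5, 0.07, 0.20 and -1.73 at 12.5 mg/kg, against 1.44, 0.98, 1.32, 1.14 and 1.5 in controls, a change of -2.16 ± 0.52 (SE, adjusted p = 0.191). The slide 2 pair stood well above the other treated livers, yet below every control. Its partner Clock had -0.51 ± 0.15 (adjusted p = 0.292) and was lower within each slide. Rora, a receptor that activates Arntl, had -0.29 ± 0.11 (adjusted p = 0.429).

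None of the repressors passed. Apart from Nfil3, which was lower as described above, those measured in treated livers had changes above 0. Cry2, a partner of the PER proteins, had 1.16, 1.33, 1.34 and 1.16 at 12.5 mg/kg, against 0.69, 0.90, 0.62, 0.84 and 0.17 in controls, a change of 0.64 ± 0.17 (adjusted p = 0.239), with no overlap. Per1 had 1.15 ± 0.35 (adjusted p = 0.300), with the highest control, at -0.80, inside the treated range of -1.21 to -0.02. Per2 had 0.44 ± 0.36 (adjusted p = 0.745). Per3 stood well above background on 2 of 4 treated and 0 of 5 control arrays. Its treated mean lay 1.41-fold above the lowest signal well above background on control arrays, and the change did not pass (adjusted p = 0.415). That treated mean includes arrays not well above background, so the value is no firm lower bound. Nr1d1, the sister of Nr1d2, had 0.71 ± 0.46 (adjusted p = 0.657) and overlapped widely. Ciart, a repressor of CLOCK and BMAL1, had 0.83 ± 0.33 (adjusted p = 0.435) and was above background on 1 of 4 treated and 1 of 5 control arrays; control replicate 3 had no usable value and was dropped from its fit. Bhlhe40, a repressor at E-boxes, had 0.72 ± 0.30 (adjusted p = 0.449). Bhlhe41, above background on 0 of 4 treated and 3 of 5 control arrays, has only a bound at 12.5 mg/kg and no fold is given (adjusted p = 0.940). Cipc had 0.19 ± 0.14 (adjusted p = 0.704).

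Output and turnover genes of the list ranged widely. Wee1, a kinase that delays mitosis, had 1.13 ± 0.39 (adjusted p = 0.364). Por, which passes electrons to cytochrome P450 enzymes, had 1.17 ± 0.41 (adjusted p = 0.382). Neither overlapped between groups, but Wee1 was well above background on only 3 of 4 treated and 2 of 5 control arrays. Tars, a threonyl-tRNA synthetase, had -0.71 ± 0.15 (adjusted p = 0.149), also with no overlap. Nampt, of NAD synthesis, had 0.58, the deadenylase Noct 0.53, the tetraspanin Tspan4 0.55 and Hlf, the third D-box activator beside Dbp and Tef, 0.30, with adjusted p between 0.488 and 0.727. Without 12.5 mg/kg replicate 1 Nampt had 0.31, Noct 0.22 and Tspan4 0.29. Leo1, of the RNA polymerase associated PAF1 complex, had -0.71 and changed sign between slides (-0.91, -1.57 and 1.51). The casein kinases Csnk1d and Csnk1e, which phosphorylate PER proteins, had -0.07 and 0.14. Fbxl21, a ubiquitin ligase subunit that acts on cryptochromes, was above background on 0 of 4 treated and 2 of 5 control arrays, so no fold is given (adjusted p = 0.827).

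Several genes outside the clock list ranked beside Tef. Cplane1, a ciliogenesis gene on chromosome 15, had 0.44, 1.15, -0.48 and 1.15 at 12.5 mg/kg, against -2.17, -2.11, -1.65, -1.67 and -1.78 in controls, a change of 2.39 ± 0.39 (SE, adjusted p = 0.0515). The groups did not overlap on this probe, while its other probes had 1.15 (adjusted p = 0.295) and 0.19 (adjusted p = 0.675). Net1, a guanine nucleotide exchange factor for RhoA, had 0.47, 0.16, 0.13 and -0.49 at 12.5 mg/kg, against 1.93, 1.68, 0.72, 0.60 and 0.64 in controls. Its change was -0.93 ± 0.15 (adjusted p = 0.0515), with no overlap, and -0.63 on its second probe (adjusted p = 0.154). An unannotated interval on chromosome 9 had a probe at -1.18 ± 0.19 (adjusted p = 0.0515).

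Others higher among the smallest p were the zinc transporter Slc39a14 (0.68, adjusted p = 0.149), the kinase Dyrk3 (0.76), the receptor Gpr146 (0.69), Fam76a (0.58) and 4931440P22Rik (0.50, against 0.00 on its second probe).

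Lower among the smallest p, none passing, were Avpr1a, Slc13a2 and others. Avpr1a, the vasopressin receptor of pericentral hepatocytes, had 3.76, 4.24, 4.19 and 3.42 at 12.5 mg/kg, against 5.85, 5.79, 4.65, 4.84 and 4.90 in controls, a change of -1.25 ± 0.25 (adjusted p = 0.127). Slc13a2, a dicarboxylate transporter, had 1.69, 1.69, 1.20 and 0.93 at 12.5 mg/kg, against 3.86, 3.66, 2.87, 2.10 and 1.89 in controls, a change of -1.37 ± 0.27 (adjusted p = 0.129). Neither gene overlapped between groups, and for both the difference was largest on slide 1, at -2.06 and -2.07. The pericentral list of 27 genes, Avpr1a among them, had a median of -0.05. Gna14, a G protein subunit, had -0.89, Pxmp4, a peroxisomal membrane protein, -0.66, the nuclear receptor Ppard -0.77, the signalling adaptor Appl1 -0.52, and Pnrc1, a nuclear receptor coactivator, -0.98, with adjusted p between 0.127 and 0.156. Arl4a had -0.68, Desi2 -0.64, Fbxo17 -0.35 and Krtap20-2 -0.94, the last with -0.30, -0.35 and -0.03 on its other probes. The probe at -0.03 was well above background on 0 of 4 treated and 2 of 5 control arrays. Chpt1, of phosphatidylcholine synthesis, had -0.53 on its brightest probe and -0.04 on another.

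The largest changes by size mostly came with wide spread. Serpina3f, a serine protease inhibitor, had 1.64, 2.27, 1.16 and 2.31 at 12.5 mg/kg, against -1.20, 1.97, 1.37, -0.66 and -1.25 in controls (1.91 ± 0.67, adjusted p = 0.381), and 0.19 on its other probe. Cish, a feedback inhibitor of cytokine signalling, had 2.72, -0.15, 3.72 and 3.27 at 12.5 mg/kg, against 1.66, -0.37, -0.80, 2.41 and 0.29 in controls (1.85 ± 1.04, adjusted p = 0.596). For both genes the groups overlapped. Tubb2a, a tubulin, was lower with no overlap (0.12, 0.36, 1.63 and -0.96 at 12.5 mg/kg, against 2.59, 1.82, 2.35, 1.95 and 2.10 in controls; -1.99 ± 0.52, adjusted p = 0.255). Trim12a had -2.04 ± 0.92 (adjusted p = 0.497) and Vps16 -1.80 ± 0.85 (adjusted p = 0.521), and both overlapped.

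Enzymes that the AhR controls did not pass. Cyp1a1, the classic target, stood well above background on 1 of 4 treated arrays and on 0 of 5 controls, 1 of 19 arrays in all, so no change was measured. The same held for the AhR repressor Ahrr. Cyp1a2, abundant in liver, had 6.19, 5.13, 4.54 and 5.28 at 12.5 mg/kg, against 6.12, 5.91, 4.99, 4.61 and 5.29 in controls. Treated and control values of Cyp1a2 overlapped, and the change was 0.07 ± 0.11 (SE, adjusted p = 0.893; 0.18, 0.03 and -0.01 on slides 1, 2 and 3). Cyp1b1 was above background on 0 of 4 treated and 2 of 5 control arrays, so no fold is given (adjusted p = 0.809). Of 26 AhR targets 21 were kept, 14 higher and 7 lower, with a median of 0.07, and 0 passed in limma, with 2 higher and 1 lower at an unadjusted p under 0.05, near the 4.97% and 5.74% of all genes. Those of smallest p were Gadd45b, a stress gene (0.30 ± 0.10, adjusted p = 0.325), the glutathione transferase Gsta1 (-0.77 ± 0.27, adjusted p = 0.394), the aldehyde dehydrogenase Aldh3a1 (0.20 ± 0.08, adjusted p = 0.411) and Ahr itself (-0.35 ± 0.18, adjusted p = 0.573).

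Targets of p53 were mostly higher by small amounts. Of 42 targets 36 were kept, 31 higher and 5 lower, with a median of 0.23, and 0.24, 0.23 and 0.27 on slides 1, 2 and 3. None passed in limma, and 15 were higher and 0 lower at an unadjusted p under 0.05, against 4.97% of all genes higher. Within each slide 11 of the 36 lay above every control, against 4.37% of all genes. The mean log2 ratio over the list was -0.46, -0.24, -0.35 and -0.32 at 12.5 mg/kg, against -0.67, -0.75, -0.59, -0.56 and -0.67 in controls. All treated arrays thus lay above all controls. Of the 22 members among the brighter genes 18 were higher (median 0.18, against -0.03 for all brighter genes), and of the 14 among the dimmer genes 13 (median 0.30, against 0.02).

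Among members of the p53 target list, those of smallest p were Aen, Ccng1, Zmat3 and Zfp365. Aen, a nuclease of p53-driven cell death, had 0.54, 0.06, -0.43 and -0.16 at 12.5 mg/kg, against -0.56, -0.45, -0.60, -1.13 and -0.86 in controls, a change of 0.78 ± 0.16 (SE, adjusted p = 0.150) with no overlap, and 0.69 on its second probe. Ccng1, a cyclin induced by p53, had -1.74, -0.96, -1.24 and -0.65 at 12.5 mg/kg, against -2.43, -2.50, -1.71, -1.85 and -1.72 in controls, a change of 0.78 ± 0.17 (adjusted p = 0.154). On each slide every treated value of Ccng1 exceeded every control, though the slide 1 treated array lay below 2 controls of other slides. Zmat3, an RNA-binding protein of the p53 response, had 0.34 ± 0.08 (adjusted p = 0.156) and Zfp365, above background on 1 of 4 treated and 2 of 5 control arrays, 0.32 ± 0.09 (adjusted p = 0.295). Cdkn1a, the gene of the p21 protein that stops the cell cycle, had -2.61, -1.77, -1.97 and -2.56 at 12.5 mg/kg, against -2.75, -3.75, -3.07, -2.82 and -3.07 in controls. The groups did not overlap, though the nearest arrays lay close together (0.77 ± 0.38, adjusted p = 0.547). Mdm2, whose product marks p53 for degradation, had 0.15 ± 0.08 (adjusted p = 0.600).

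**Figure D4:**
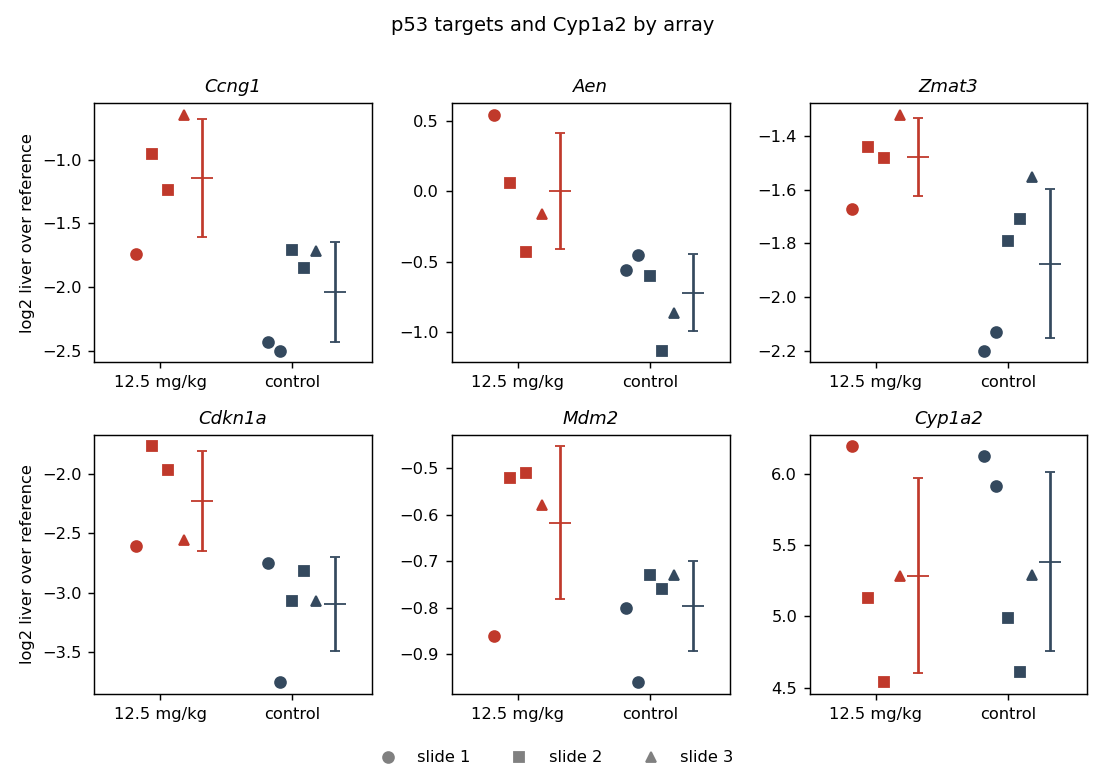
Log2 ratio of liver over reference for 5 p53 targets and Cyp1a2 on each array at 12.5 mg/kg (left in each panel) and in control (right), with markers for the slide and bars for mean and SD. Aen and Cdkn1a do not overlap between groups, and Mdm2, Ccng1, Zmat3 and Cyp1a2 overlap.

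Genes of cell division and DNA repair had median log2 liver signals of 8.91 and 8.66, slightly below the 9.15 of all genes. Of these, 26 of 34 and 33 of 43 were well above background on all 9 arrays, against 9915 of all 13812 genes. The median over 34 kept cell cycle genes was 0.19 (0.28, 0.11 and 0.14 on slides 1, 2 and 3), 29 being higher and 5 lower, and 21 of the 34 were among the dimmer genes. None passed in limma, with 10 higher and 0 lower at an unadjusted p under 0.05, against 4.97% and 5.74% of all genes. Those of smallest p were the replication factors Mcm2 (0.30 ± 0.08) and Cdt1 (0.34 ± 0.10), the proliferation marker Mki67 (0.43 ± 0.13) and the mitotic regulator Foxm1 (0.36 ± 0.11), with adjusted p of 0.292 to 0.300. Mcm2 was above background on 2 of 4 treated and 4 of 5 control arrays. Mki67 lay at -4.91, -4.65, -4.46 and -5.08 at 12.5 mg/kg, against -5.59, -5.85, -4.67, -4.92 and -5.27 in controls, strongly negative log2 ratios on every array. Among the brighter genes 12 of 13 members were higher (median 0.15), and among the dimmer 17 of 21 (median 0.24).

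Of 43 kept DNA repair genes 28 were higher, with a median of 0.06, and 0 passed in limma. At an unadjusted p under 0.05 there were 8 higher and 1 lower, against 4.97% and 5.74% of all genes. Brca2, of repair by homologous recombination, had 0.47 ± 0.10 (SE, adjusted p = 0.156) and was above background on 2 of 4 treated and 3 of 5 control arrays. Gadd45a, a stress gene that p53 induces, had -2.09, -1.45, -1.10 and -2.03 at 12.5 mg/kg, against -3.20, -2.94, -2.08, -2.35 and -2.28 in controls, a change of 0.83 ± 0.23 (adjusted p = 0.274). Its differences were 0.97, 0.94 and 0.26 on slides 1, 2 and 3. Rad18, above background on 2 of 4 treated and 4 of 5 control arrays, had 0.30, and for Rad54l, above background on 0 of 4 treated and 1 of 5 control arrays, no fold is given.

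Cholesterol synthesis genes were lower almost throughout. Of 27 genes, all kept, 26 were lower and 1 higher (Stard4, a sterol carrier, at 0.28, named after its value was seen). The median was -0.25, with -0.28, -0.19 and -0.23 on slides 1, 2 and 3. None passed in limma, and 6 were lower at an unadjusted p under 0.05, against 5.74% of all genes. The mean log2 ratio over the list was 2.36, 1.91, 2.23 and 1.97 at 12.5 mg/kg, against 2.63, 2.78, 2.28, 2.24 and 2.26 in controls, so the groups overlapped across slides. Sc5d, a sterol desaturase, had -0.51 ± 0.13 (adjusted p = 0.236). Insig2, which holds back the pathway by keeping SREBP in the endoplasmic reticulum, had 2.16, 2.08, 2.05 and 1.88 at 12.5 mg/kg, against 3.75, 3.07, 2.96, 2.81 and 3.21 in controls. It was lower with no overlap (-1.16 ± 0.33, adjusted p = 0.292; -1.24 on its second probe). The sterol dehydrogenase Nsdhl had -0.30 ± 0.10 (adjusted p = 0.353) and Acat2 -0.29 ± 0.11 (adjusted p = 0.416). Of the 27 members 24 were among the brighter genes, of which 42.2% were higher overall.

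In the unfolded protein response and acute phase lists the differences were largest on slide 3. Of 36 unfolded protein response genes 29 were lower, with a median of -0.35, but the median was 0.01 and -0.13 on slides 1 and 2 and -0.79 on slide 3. The slide 3 control had a mean log2 ratio of 1.21 over the list, against 0.37 to 0.92 in the other controls, and the treated arrays had 0.22 to 0.63. Atf5, Ddit3 and Atf4, factors of the stress response, had -0.71 ± 0.20 (SE, adjusted p = 0.274), -0.74 ± 0.22 (adjusted p = 0.295) and -0.49 ± 0.15 (adjusted p = 0.314), and the oxidoreductase Ero1b -0.55 ± 0.21 (adjusted p = 0.411). Ddit3 had -0.29, -0.54 and -1.89 on slides 1, 2 and 3, while Atf5 was more even (-0.63, -0.61 and -0.89). Among 33 acute phase genes 31 were higher; their median was 0.23, with 0.12, 0.01 and 0.70 on slides 1, 2 and 3. Saa3, an acute phase amyloid, had -0.01, 0.20 and 1.45, and the metallothioneins Mt1 and Mt2 had 0.45 ± 0.18 and 0.33 ± 0.14 (adjusted p = 0.429 and 0.442). On slides 1, 2 and 3 Mt1 had 0.34, 0.19 and 1.10, and Mt2 had 0.23, 0.04 and 1.05. The interleukin-1 receptor Il1r1 had 0.69 ± 0.24 (adjusted p = 0.373). No member of either list passed in limma. At an unadjusted p under 0.05, 2 unfolded protein response genes were higher and 7 lower, and 5 acute phase genes were higher and 0 lower, against 4.97% and 5.74% of all genes. Without 12.5 mg/kg replicate 1 the acute phase median was 0.07, Mt1 had 0.29 and Mt2 0.13, and without control replicate 1 the unfolded protein response median was -0.21.

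Genes of glucose and fatty acid use included some large single differences. Ppp1r3c, which targets a phosphatase to glycogen, had 3.64, 4.55, 3.14 and 2.85 at 12.5 mg/kg, against 5.74, 5.60, 5.56, 4.41 and 5.44 in controls, a change of -1.78 ± 0.45 (SE, adjusted p = 0.234). Only the highest treated and the lowest control array, both on slide 2, crossed. Pdk4, which blocks pyruvate oxidation in fasting, had -0.43, 0.14, 0.51 and -0.29 at 12.5 mg/kg, against 1.03, 1.62, 1.61, 0.67 and 1.38 in controls (-1.37 ± 0.37, adjusted p = 0.270), with no overlap. Pfkfb3, a regulator of glycolysis, had 1.5 ± 0.45 (adjusted p = 0.300), with 2.47, 0.34 and 2.36 on slides 1, 2 and 3. The insulin receptor substrate Irs1 had -0.51 ± 0.14 (adjusted p = 0.284), against -0.01 on its other probe. That other probe was well above background on 0 of 4 treated and 2 of 5 control arrays. As lists, 21 of 32 glucose genes were higher (median 0.03) and 25 of 39 PPAR alpha targets lower (median -0.05). Cpt1a, the gate of mitochondrial fatty acid oxidation, had 0.42 ± 0.14, its muscle form Cpt1b -0.26 ± 0.10, and Plin2, a lipid droplet coat, -0.44 ± 0.16, with adjusted p of 0.336 to 0.435; Cpt1b was above background on 1 of 4 treated and 3 of 5 control arrays.

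Drug metabolism genes of CAR and PXR were lower in 20 of 30 cases, with a median of -0.11, and 0 passed in limma. At an unadjusted p under 0.05 there were 2 higher and 5 lower, against 4.97% and 5.74% of all genes. Cyp3a11, the main Cyp3a enzyme of mouse liver, had 8.53, 6.48, 6.95 and 6.91 at 12.5 mg/kg, against 10.12, 9.19, 7.56, 7.84 and 7.75 in controls, a change of -1.05 ± 0.24 (SE, adjusted p = 0.172). Within each slide every treated array lay below every control, with differences of -1.12, -0.98 and -0.84. Cyp3a16, a close relative, had -0.77 ± 0.23 (adjusted p = 0.295), and the levels of such close relatives are uncertain where probes match both. The retinal dehydrogenase Aldh1a1 had -0.46 ± 0.14 (adjusted p = 0.300).

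Transcription factors of immediate early and Klf type leaned higher. The median over 23 immediate early genes was 0.18; 20 of them were higher, and 14 were among the dimmer genes. None passed in limma, with 5 higher at an unadjusted p under 0.05, against 4.97% of all genes. Maff, a small Maf factor, had 0.86 ± 0.20 (SE, adjusted p = 0.166), Junb, an AP-1 subunit, 0.63 ± 0.17 (adjusted p = 0.277), Fosb 0.26 ± 0.09 and Fosl2 0.39 ± 0.15. Junb had -0.84, -0.81, -0.99 and -1.22 at 12.5 mg/kg, against -1.62, -1.55, -1.62, -1.27 and -1.72 in controls, with no overlap. However, Junb was well above background on only 3 of 4 treated and 3 of 5 control arrays. Maff was so on 3 of 4 and 4 of 5, and Fosl2 on 2 of 4 and 4 of 5. Of 14 Klf and Sp factors 11 were higher; the median was 0.18, with 0.02, 0.16 and 0.25 on slides 1, 2 and 3. Klf13 had 0.67 ± 0.17 (adjusted p = 0.231) and Klf9 0.60 ± 0.23 (adjusted p = 0.419), both with no overlap, Klf10 0.78 ± 0.28 (adjusted p = 0.386) and Klf12 -0.48 ± 0.17 (adjusted p = 0.376).

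**Figure D5:**
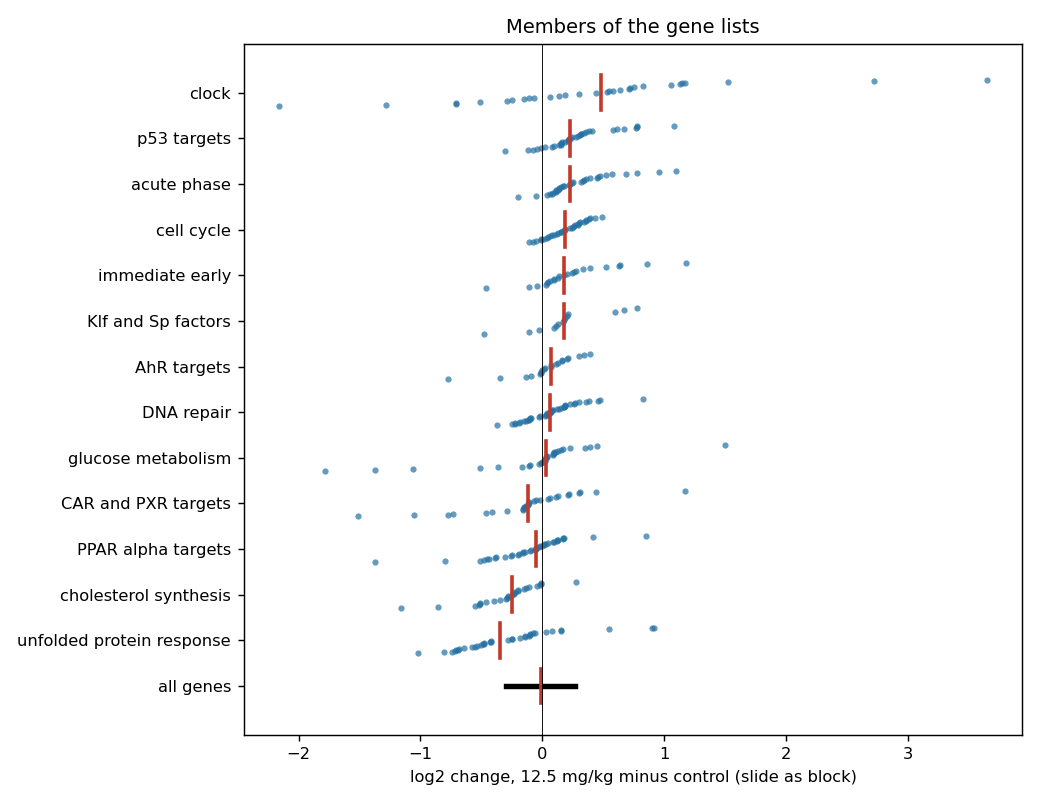
Log2 change at 12.5 mg/kg minus control for each kept member of 13 gene lists, one row per list, with the list median in red; the black bar spans the 5th to 95th percentile of all genes (-0.30 to 0.27). The clock list spreads from -2.16 to 3.65, and all but 1 of 27 cholesterol synthesis genes lie below 0.

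Against 25 mg/kg, the highest dose, 0 of 29415 probes passed in limma (0%), with 3256 at an unadjusted p under 0.05 (11.1%, 6.05% being higher at 12.5 mg/kg). By sign alone 45.6% of genes were higher at 12.5 mg/kg. The difference, 12.5 minus 25 mg/kg, was -0.19 for Dbp (adjusted p = 0.936), -0.38 for Tef and -1.09 for Usp2 (adjusted p = 0.537). Of smallest p and higher at 12.5 mg/kg were Gpnmb, a glycoprotein of activated macrophages (0.50 ± 0.08, adjusted p = 0.0816), Hs6st2 (adjusted p = 0.0823), the condensin subunit Ncaph (0.44) and osteopontin, Spp1 (0.49). Lower were Shank3 (-0.38), Hhipl1, the acyl-CoA synthetase Acsm3 (-0.81), Crym (-1.0) and the glutathione transferase Gsta3 (-0.50), with adjusted p between 0.0955 and 0.134. At 12.5 mg/kg Hs6st2 and Hhipl1 were well above background on 0 of 4 arrays, so no fold is given for them, Shank3 on 1 and Gpnmb on 2. The liver channel was dimmer than at 25 mg/kg, with 39.8% ± 5.01 of spots well above background against 47.8% ± 6.42 (SD, n = 4 and 5). Mean log2 ratios at 12.5 mg/kg were -4.31 for Gpnmb, -3.53 for Ncaph and -3.20 for Spp1. They were 0.67 for Shank3, 5.60 for Acsm3, 4.05 for Crym and 8.05 for Gsta3. The part of liver brightness in these differences was not tested.

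Against 6.25 mg/kg, the lowest dose, 1 of 29415 probes passed (0.0034%), with 3429 at an unadjusted p under 0.05 (11.7%, 5.41% being higher at 12.5 mg/kg), and 46.1% of genes were higher by sign alone. The probe that passed lies in an unannotated interval, chr10:39659425-39674200 on the reverse strand (mm9), and fell by 0.82 ± 0.11 (SE, adjusted p = 0.0292 in limma). The interval has 5 kept probes, all lower against 6.25 mg/kg (-0.88 to -0.65) and against control (-0.78 to -0.46), none passing against control (smallest adjusted p = 0.0889). The probe that passed had 3.32, 3.22, 3.03 and 3.19 at 12.5 mg/kg, against 4.46, 4.19, 3.67, 3.53 and 3.68 in controls. On that probe all controls lay above all treated arrays, while the groups overlapped on some of the other probes. Against 6.25 mg/kg 0 probes passed in 6 of the other fits of this comparison. The liver channel at 12.5 mg/kg was dimmer here too, with 39.8% ± 5.01 of spots well above background against 48.3% ± 4.81 at 6.25 mg/kg (SD). The part of liver brightness in the differences of this comparison was not tested. Higher than at 6.25 mg/kg by smallest p were Spata21 (0.59), the tubulin Tubg2 (0.56), Ncaph (0.43), Spp1 (0.46) and the cyclin Ccnb1 (0.58), and lower were Cyyr1 (-0.61), the ubiquitin ligase Wwp1 (-0.44), Lgr5 (-1.43), Net1 (-0.82) and Acsm3 (-0.81), with adjusted p of 0.114 to 0.128.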

How the data were processed

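Per the file headers, Feature Extraction 10.7.3.1 made the deposited scanner files, which give median red and green intensities for spots and local background. The deposited value table holds log2 ratios, whose making is not given in the sources used here. RNA came by TRIzol and RNeasy columns, per the labels' protocols. Intensities were corrected with normexp (offset 50), and red over green was normalised by loess within arrays in limma 3.58.1 (R 4.3.3, statmod 1.5.0). A probe was kept when well above background in liver on at least 4 of 19 arrays (29415 of 55681). Symbols came from RefSeq accessions (GRCm38.p6), naming 47.4% of probes, and a gene took its brightest kept probe. Models covered all 19 arrays with dose and slide. The number of arrays limits the precision. Replicates are separate animals. Simulated arrays (12.5 mg/kg minus control, 29415 probes) had independent normal noise and 50 changed probes at each log2 change of 1, 2, 3 and 4. At 1, 47 of 50 were called, and all 50 at each of 2, 3 and 4. In error, 14 unchanged probes were called too. So many changed probes loosen the adjusted threshold, so these rates do not give the power in the livers, where 2 probes passed. The members and lists were chosen with earlier results of these data known. Named genes were the passing gene, the 15 of smallest p and 5 largest each way, the clock list, Cyp1a2, Cyp1b1, Cdkn1a, Mdm2, and up to 4 members with the smallest p from every other list; for the other doses, the 5 of smallest p each way. Some genes that these rules name are not reported here.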

Additional observations from a re-analysis of the deposited data

Results flagged for a closer look

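Of 244 groups of array values tested for a sample far from the others, 7 held one, where chance gives about 1 in 20. Of these, 4 were arrays at 12.5 mg/kg. Replicate 4 had 1.90 for Cipc, against 1.52 to 1.54 on the others of its group. Replicate 1, on slide 3, had 0.66 for Noct (others -0.27 to -0.13), -1.14 for Aldh3a1 (others -0.82 to -0.77) and 2.00 for Lgr5, a pericentral Wnt receptor (others 1.21 to 1.29). The other 3 were controls. Control replicate 5 had -3.88 for Vps16 (others -0.69 to 0.45), control replicate 3 had 4.41 for Ppp1r3c (others 5.44 to 5.74) and control replicate 1 had -4.69 for Mt1 (others -4.16 to -3.98).

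The effect at 12.5 mg/kg differed from that at 6.25 mg/kg at 1 probe, in the unannotated interval on chromosome 10 described above (-0.82, by the test of the difference in limma). Among probes left out for dim signal, Cyp1a1 and Ahrr were each well above background on 1 array at 12.5 mg/kg and on 0 control arrays.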

How the results depend on the processing

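No paired analysis was possible because the labels number the samples once over the series and give no replicate number shared between groups. Against control, 2 probes passed, as they did with no background correction, Aquantile, the liver channel alone, no filter on dim probes and a 1.5-fold limit. The count was 0 with no slide block, with liver brightness as a covariate, with the scanner-processed signals, with the deposited log2 ratios and with a trended robust prior. It was 4 with slide as a random block, 6 over probes above background on all 9 arrays, 7 with array weights and 19 over the 9 arrays alone. Leaving out 1 array gave 0 to 7. Dbp was higher in all 23 refits and passed in 12. Its change was 3.52 with no slide block and with the deposited log2 ratios, 3.96 with liver brightness as a covariate, 3.76 with scanner-processed signals and 3.65 with a trended robust prior, and missed the threshold in each; it was 3.34 to 3.93 with 1 array left out, and 2.70 and 4.45 within slides 2 and 3, where no test was made. The cause of these losses was not tested. Against 25 mg/kg the count was 6 with scanner-processed signals. Against 6.25 mg/kg it was 2 with those signals and 0 with no slide block, liver brightness as a covariate, no background correction, deposited log2 ratios, the liver channel alone and a trended robust prior. The share of liver spots above background differed by -9.84 to -4.79 points with 1 array left out. Chosen after seeing the data, the upper quartile of net liver signal differed by -49.1. Its exact permutation p was 0.46, and 0.0278, the smallest possible, with labels exchanged within slides.

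Of 3115 values of the 121 named genes 27 turned sign against control. With no slide block Cyp1a2 had -0.10 and Ccnb1 0.04. With liver brightness as a covariate Hs6st2 had -0.08 and Ccnb1 0. With scanner-processed signals Fbxl21 had 0.51, Csnk1d 0.02, Cyp1b1 -0.36, Hs6st2 -0.23 and Crym 0.05. In the liver channel alone Bhlhe41 had -0.01, Cyp1a2 -0.19, Cyp1b1 -0.05, Hs6st2 -0.10 and Cyyr1 0.02. With the mean of its probes Ccnb1 had 0.10. With 1 array left out Cyp1a2 lay between -0.02 and 0.18, Csnk1d between -0.17 and 0.01, Bhlhe41 between -0.01 and 0.22, Hs6st2 between -0.04 and 0.10, and Ccnb1 between -0.07 and 0.05. The list medians kept their sign in all 26 refits for clock, p53, cell cycle, cholesterol synthesis, acute phase, immediate early and Klf genes. The unfolded protein response did in 25 of 26.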

Other observations

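Nrf2 targets, antioxidant genes, were lower in 25 of 35 cases with a median of -0.11, and bile acid genes in 18 of 25 with a median of -0.07. Among the bile acid genes Cyp8b1, the sterol hydroxylase of cholic acid synthesis, had -0.74 ± 0.26 (SE, adjusted p = 0.386 in limma) and the sterol exporter Abcg5 0.55 ± 0.22 (adjusted p = 0.432). Lipogenic genes were lower in 18 of 27 cases, with Acss2, an acetyl-CoA synthetase, at -0.52 ± 0.19 (adjusted p = 0.406). Of 21 heat shock genes 16 were lower, but the median was 0.05, -0.02 and -0.74 on slides 1, 2 and 3. MicroRNA processing genes were split evenly, 10 higher and 10 lower. Female-biased liver genes had a median of 0.00, with the growth factor Gas6 at 0.63 ± 0.17 (adjusted p = 0.255), and male-biased genes -0.06. Interferon genes had -0.04, with control replicate 4 at a mean log2 ratio of 0.53 over the list, against -0.40 to -0.06 in the other controls and -0.17 to 0.08 at 12.5 mg/kg.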
